A study of Homo sapiens with 6 samples.

Results

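MicroRNA-named genes were followed in total RNA of KMS27, an established human myeloma line of malignant plasma cells, in 3 libraries of cells overexpressing HA-TAZ and 3 libraries of wild type cells. HA is a peptide tag, and TAZ, the product of WWTR1, is a transcriptional coactivator held in check by the Hippo pathway. The members were all genes whose symbol begins with MIR and a digit, or with MIRLET7, that are not called host genes, and whose TPM (a share of a library's transcripts, corrected for length), summed over the transcripts of a gene ID, had a mean of at least 1 over the 6 libraries. This gave 409 members of 63677 gene IDs, out of 1469 microRNA-named IDs, of which 801 were listed at 0 in every library and 259 lay above 0 but under the threshold. The members were thus chosen by their mean TPM over all 6 libraries, so their levels are given as a description, while the difference between the groups was not used to choose them. The labels name no vector, promoter, clone or treatment time for the overexpression, and do not say whether the libraries of a group came from separate cultures, so p-values measure the spread between these libraries, which may be technical. The columns of HA-TAZ libraries carry the numbers of the sample titles (HA-TAZ 1, 2 and 3), whereas the other 3 columns, taken as wild type by elimination, carry a name found in no label and are called control a, b and c.

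A microRNA gene is transcribed as a long primary RNA, often inside an intron of another gene. DROSHA with DGCR8 cuts out a hairpin in the nucleus, XPO5 with RAN exports it, DICER1 cuts it to a short duplex, and an AGO protein keeps one strand, whose seed (bases 2 to 8) pairs with target messages. Members of a seed family can therefore share targets, and in plasma cell tumours microRNAs have been studied both as drivers and as inhibitors of growth. The labels describe ribosome-depleted libraries of total RNA and no small RNA library, so a value here is the amount of reads given to a transcript of hairpin length or to a longer gene with a microRNA symbol, not an amount of mature microRNA.

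Mature sequences of some members named in the results are printed from RefSeq (GRCh38.p14) with the seed in capitals. Those of MIR5194 and of several other called members are not printed. Both arms of miR-590 are shown because the study's title names miR-590-3p, miR-663a and miR-663b because their genes were among the 4 of highest level, and the others because their genes passed the test. Let-7g is set beside miR-98 since both carry the let-7 seed.
hsa-miR-590-3p: uAAUUUUAuguauaagcuagu
hsa-miR-590-5p: gAGCUUAUucauaaaagugcag
hsa-miR-663a: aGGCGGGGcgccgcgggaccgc
hsa-miR-663b: gGUGGCCCggccgugccugagg
hsa-miR-320b: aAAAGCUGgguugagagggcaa
hsa-miR-98-5p: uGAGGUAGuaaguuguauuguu
hsa-let-7g-5p: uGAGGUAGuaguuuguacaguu
hsa-miR-5690: uCAGCUACuaccucuauuagg
hsa-miR-3908: gAGCAAUGuagguagacuguuu
hsa-miR-941: cACCCGGCugugugcacaugugc
hsa-miR-365a-3p: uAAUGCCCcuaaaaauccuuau
hsa-miR-4292: cCCCUGGGccggccuugg

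The symbol of a member did not always name a hairpin. By transcript ID and gene type in GENCODE 29, 388 members were taken as short: 373 had a transcript length there, from 45 to 180 bases (median 84), and the others were single-transcript genes with no length. A further 21 were long genes that bear a microRNA symbol (20 with a length, from 297 to 19049 bases). Under the symbol MIR29A stood LINC-PINT, a long intergenic RNA. MIR146A stood for MIR3142HG, the host transcript of that microRNA, and MIR4461 for MTND4LP30, a processed pseudogene. MIR663A was MIR663AHG, and of its 37 transcripts 3 carried 99.9% of the TPM, while the hairpin transcript itself carried 0.0984% at a mean of 13.9 TPM. GENCODE 29 calls 354 members microRNA, gives 20 another type and lacks the gene IDs of 35, 34 of them short, some of whose transcript IDs it still holds. Some entries are copies: 29 members shared all 6 values with another member, which left 394 distinct sets of values, and 7 symbols, MIR590 and MIR98 among them, had 2 member IDs. How the quantification divided reads among such copies is not given in the sources used here, so single copies are uncertain.

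Most members stood on few reads. The median of their mean levels was 3.87 TPM: 236 members lay from 1 to 5 TPM, 128 from 5 to 20, 41 from 20 to 1000 and 4 above 1000. A value above 0 was seen in all 6 libraries for 248 members, and 161 were listed at 0 in 1 or more. The authors' deposited table gives, for each transcript it tested, the mean natural log of estimated counts, and its exponent was taken as the estimated counts of a typical library. By that measure the 186 short members in the table had a median of 8.96 estimated counts (quartiles 5.64 and 18.5), at which counting alone gives an error of 33.4%. For 101 of them the estimate was under 10 counts, and for 4 it was 100 or more. A single estimated count was worth 1.07 TPM in the median short member and 0.0126 TPM in the median long gene, since TPM divides by length. The pairs of reads were 100 bases long at each end per the labels, and 328 of the short members have a transcript shorter than 100 bases. The table gives no statistics for 202 members.

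**Figure D1:**
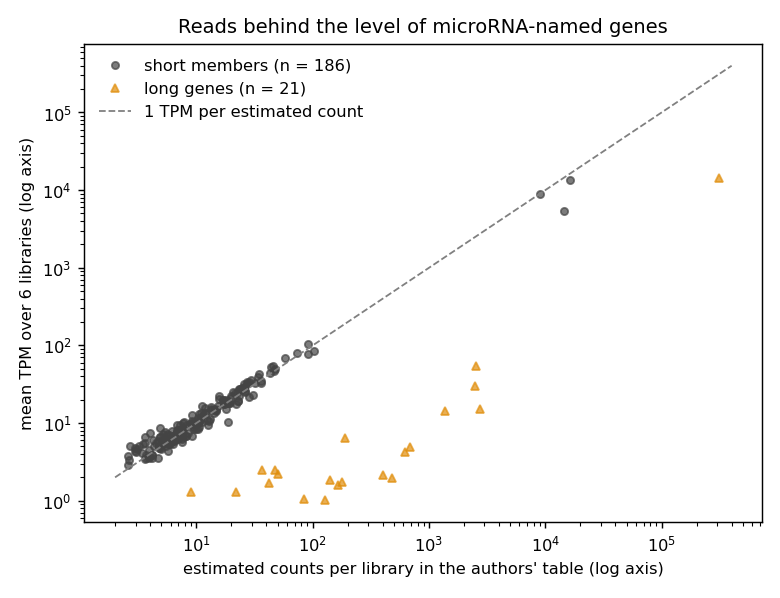
Mean TPM over the 6 libraries (vertical, log axis) against estimated counts of a typical library in the authors' deposited table (horizontal, log axis) for the 186 short members (circles) and 21 long genes (triangles) listed there; the dashed line marks 1 TPM per estimated count. Short members lie near the line with a median of 8.96 counts, 3 of them stand apart at the upper right, and the long genes lie far below the line.

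The spread between libraries was set beside the error that counting alone gives. Over 183 short members the median coefficient of variation was 39.5% among the control libraries and 37.7% among the HA-TAZ libraries, beside a median counting error of 34.5% for the same members. The counting error covers counting only, and the labels name no molecular identifiers. The part of counting in the spread was not tested.

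Between HA-TAZ and control, 19 of the 409 members (4.65%) differed, 7 higher and 12 lower in HA-TAZ. The test was limma on log2(scaled TPM + 1), where scaled TPM is TPM divided by a median-of-ratios factor per library, with Benjamini-Hochberg adjustment over 22651 genes at 0.05. The same test called 7.29% of all genes, 4.67% higher and 2.63% lower, but calls depended on level. At a mean of 1 to 5 TPM, 4.66% of 236 members and 2.82% of all genes were called, from 5 to 20 TPM 3.12% of 128 members and 8.12% of all genes, and from 20 to 1000 TPM 9.76% of 41 members and 14.5% of all genes. The members' count is thus near or under the background except at the lowest level, and is no result about microRNA genes as a set. The 19 called IDs held 17 distinct sets of values, and all were short members. At an unadjusted p under 0.05 there were 79 members (19.3%), beside 30.7% of all genes. In scaled TPM the groups did not overlap for 33 members that were higher and 42 that were lower in HA-TAZ, beside 20.2% and 18.3% of all genes. In both directions together these were 18.3% of the members and 38.5% of all genes. With TPM as deposited there were 19 such members that were higher and 57 that were lower, beside 4.41% and 43.6% of all genes. The median log2 fold change of the members was -0.10, with quartiles of -0.51 and 0.48, and that of all tested genes was -0.03. A lower level in bulk RNA can come from fewer cells with the transcript or from less RNA per cell, which cannot be told apart. With TPM as deposited the median of all genes moved to -0.27 and that of the members to -0.33, and the calls became 3 higher and 26 lower, 7.09% of members beside 14.7% of all genes. With 1 library fewer, calls fell in all genes too. There were 3 members called without HA-TAZ 1 (0.733%, beside 0.508% of all genes), 2 without HA-TAZ 2 (0.489%, beside 0.534%), 2 without HA-TAZ 3 (0.489%, beside 0.856%), 11 without control a (2.69%, beside 1.73%), 3 without control b (0.733%, beside 0.592%) and 3 without control c (0.733%, beside 1.91%), so which share was larger varied with the library left out.

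**Figure D2:**
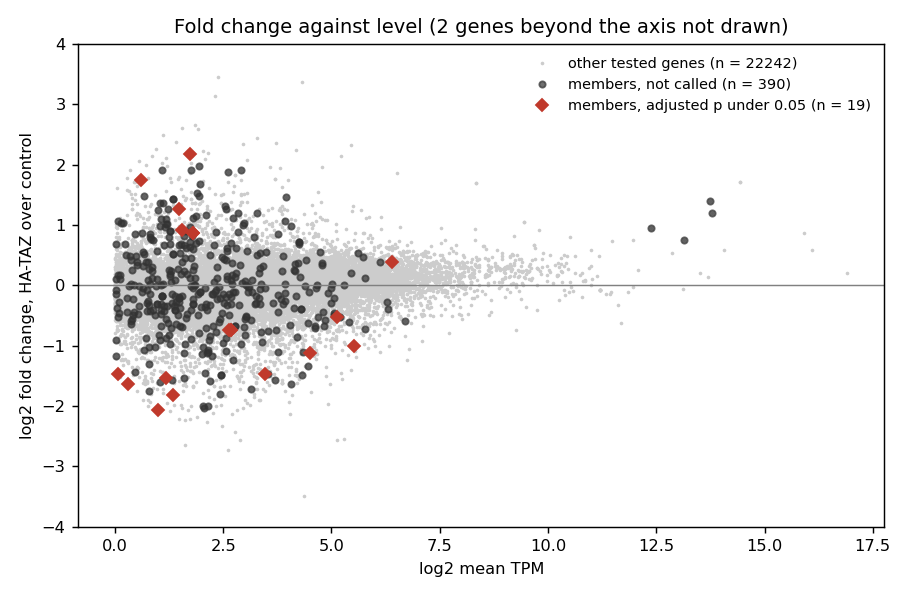
Log2 fold change of HA-TAZ over control (vertical) against log2 mean TPM (horizontal) for the 22651 tested genes; grey points are other genes, dark circles members not called and red diamonds the 19 members with an adjusted p under 0.05. Members spread most widely at low level, and the 4 at the far right, all above 0, were not called.

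Nearly all of the members' TPM lay in 4 genes, MIR663A, MIR3687, MIR663B and MIR3648, which held from 84.2% to 95.6% of it in a library. All 4 were higher in every HA-TAZ library than in every control library in scaled TPM, and none passed the adjusted test. MIR663A (ENSG00000227195), here its long host transcripts, stood at 20744, 15481 and 24751 scaled TPM in HA-TAZ 1, 2 and 3 and at 5921, 9122 and 12038 in control a, b and c (log2 fold change 1.20, SE 0.32, limma adjusted p = 0.0722). As deposited, not scaled, the hairpin transcript within it was listed at 19.8, 9.90 and 34.7 TPM in HA-TAZ, against 8.01, 2.24 and 8.74 in the controls. These do not overlap, but about 9.53 estimated counts lay behind that transcript, and its q-value in the authors' deposited table was 0.155. As deposited, 4.41% of all genes were higher in HA-TAZ without overlap. MIR663B (ENSG00000221288), which in RefSeq lies inside ANKRD30BL and a pseudogene, stood at 11839, 9864 and 12612 against 5680, 6903 and 7977 scaled TPM (0.75, SE 0.18, limma adjusted p = 0.0586).

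MIR3687 (ENSG00000264063) stood at 24498, 15842 and 20235 scaled TPM in HA-TAZ and at 4059, 9816 and 10907 in control, with a log2 fold change of 1.39 and a limma adjusted p of 0.0923. MIR3648 (ENSG00000264462) stood at 8203, 5968 and 6933 against 2089, 4207 and 5371 scaled TPM, with 0.95 and 0.146. In each of the 4 genes control a was the lowest library. RefSeq places a MIR3648 copy inside RNA45SN2, the precursor of ribosomal RNA, which the library kit depletes. Ribosomal genes themselves varied among libraries: RNA5-8S5 stood at 467, 339 and 686 scaled TPM in HA-TAZ against 71.9, 126 and 349 in control, which overlap. RNA28S5 stood at 1461, 1384 and 1803 against 965, 836 and 1564, and RNA18S5 at 489, 607 and 596 against 436, 53.3 and 1372. The part of ribosomal RNA left in a library in the values of the 4 genes was not tested.

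**Figure D3:**
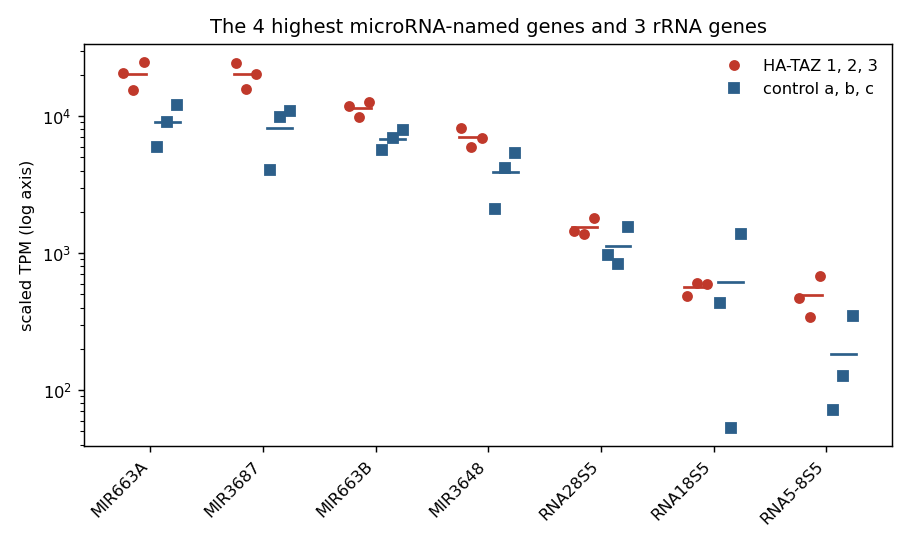
Scaled TPM (vertical, log axis) of the 4 microRNA-named genes of highest level and 3 ribosomal RNA genes in each HA-TAZ library (circles) and control library (squares), with bars at the group means. The groups do not overlap for the 4 microRNA-named genes and overlap for the 3 ribosomal RNA genes, and control a is the lowest library for the 4.

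The authors' deposited table, a test for each transcript, has a q-value under 0.05 for 6 of the 225 transcripts of members it covers, beside 5.68% of all its transcripts (4.08% above 0 and 1.6% below 0). Of these 6, 4 have a positive effect, which is the natural log of HA-TAZ over control: 3 transcripts of MIR663A (effects 0.755, 0.881 and 1.02, with q-values of 0.00709, 0.0236 and 0.0288 in the authors' deposited table) and MIR663B (0.546, q-value 4.92e-06 in the authors' deposited table). The 2 negative ones are MIR1255B1, a long antisense RNA under a microRNA symbol (-0.449, q-value 5.03e-04 in the authors' deposited table), and MIR5194 (-0.674, q-value 0.0308 in the authors' deposited table). MIR5194 was the single member with a call in both the limma fit and the authors' deposited table. Of the other called members, 8 have a q-value of 0.05 or more there and 10 have no statistics.

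Because these 4 genes dominate, the sum of the members follows them. As deposited, all members summed to 59150, 48644 and 60427 TPM in HA-TAZ and to 25501, 36518 and 42263 in control, a ratio of group means of 1.61. Without the 4 highest the sums were 2632, 3049 and 3004 against 4041, 3757 and 3889 TPM, a ratio of 0.74. After scaling, these remaining 405 members summed to 3040, 3153 and 3375 in HA-TAZ and to 3342, 3446 and 3678 in control, where the groups overlap and the ratio is 0.91. Direction in the sum thus depended on 4 genes, and its size on the scaling.

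MIR590 is the gene of the microRNA that the title names, and its hairpin lies in an intron of EIF4H, a translation initiation factor gene. It has 2 gene IDs with identical values (ENSG00000207741 and ENSG00000263190), each at 18.5, 13.99 and 12.3 TPM in HA-TAZ, against 23.2, 21.4 and 28.2 in the controls as deposited, where every HA-TAZ library was lower. Scaled, the values were 21.4, 14.5 and 13.8 against 19.2, 19.7 and 26.7, and HA-TAZ 1 lay among the controls. The log2 fold change was -0.39 (SE 0.20, limma adjusted p = 0.247), and the authors' deposited table gives a q-value of 0.812. About 16.8 estimated counts lay behind each ID. The data hold no value for the mature miR-590-3p printed above.

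Of the 12 lower calls, MIR5194 (ENSG00000264653), a hairpin in an intron of FAM49B, was the firmest. It stood at 29.7, 28.6 and 28.4 scaled TPM in HA-TAZ and at 58.8, 53.8 and 65.1 in control. Every HA-TAZ library was well below every control library, and the HA-TAZ values were close together (28.9 ± 0.692 against 59.2 ± 5.70, SD, n = 3 libraries each). The log2 fold change was -1.01 (SE 0.08, limma adjusted p = 0.00609) on about 46.5 estimated counts. At that number the 3 HA-TAZ values are closer together than counting error alone would give, so their closeness is not taken as precision. MIR5194 was the one member that kept its call in all 6 fits without a library and in all 7 other fits. Its host FAM49B stood at 114, 110 and 103 against 131, 125 and 116 scaled TPM (-0.19, limma adjusted p = 0.114). MIR5194 relative to FAM49B was lower in each HA-TAZ library than in each control library (difference -0.82 on the log2 scale, exact two-sided permutation test p = 0.1, the smallest that 3 against 3 libraries can give). MIR5194 was picked for its own difference, so this comparison is not independent of it and adds no support.

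MIR320B2 (ENSG00000221406), a locus of miR-320b in an intron of NVL, stood at 9.27, 14.1 and 17.3 scaled TPM against 30.1, 29.2 and 29.8, so the controls were nearly alike and all above HA-TAZ (-1.12, SE 0.21, limma adjusted p = 0.0394). On about 30.5 estimated counts, its 3 control values too are closer together than counting error alone would give. MIR320C1, whose mature product has the same seed, stood at 36.5, 33.1 and 45.4 against 90.4, 58.5 and 48.4 scaled TPM and was not called (-0.73, limma adjusted p = 0.115). MIR320C2, MIR320D1 and MIR4429, which carry that seed too, had log2 fold changes of -0.03, 0.88 and 1.04, none called, so the members of this seed did not share a direction.

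MIR5690 (ENSG00000265527), in an intron of FKBP5, the gene of a glucocorticoid receptor co-chaperone, stood at 4.42, 4.86 and 5.73 scaled TPM against 11.6, 19.96 and 16.0 (-1.47, SE 0.20, limma adjusted p = 0.0223). FKBP5 itself was at 19.4, 19.9 and 18.7 against 20.7, 20.7 and 18.3 (-0.04). MIR3908 (ENSG00000266655) stood at 3.76, 4.29 and 4.56 against 7.67, 7.65 and 7.67 (-0.74, SE 0.08, limma adjusted p = 0.0140). The 3 control values of MIR3908 are closer together than about 7.51 estimated counts per library would be by counting error alone, which is 36.5%. Both kept the call in the 7 other fits, and lost it in 5 and 4 of the 6 fits without a library.

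MIR98, a let-7 family gene in an intron of the ubiquitin ligase gene HUWE1, has 2 IDs with the same values, 4.17, 4.04 and 4.81 scaled TPM against 8.72, 6.50 and 8.72 (-0.74, SE 0.13, limma adjusted p = 0.0371). MIR3613, in an intron of DLEU2, the long RNA that also hosts the miR-15a cluster, stood at 0, 0.941 and 0.905 against 2.37, 4.51 and 3.91 scaled TPM (-1.54, limma adjusted p = 0.0494). MIR1302-8 stood at 0.913, 0 and 0.630 against 4.10, 4.07 and 4.25 (-1.81, limma adjusted p = 0.0226). Another 3 genes were listed at 0 in every HA-TAZ library, so that no fold is given: MIR4779 at 1.15, 4.98 and 4.76 in control, MIR4682 at 1.14, 3.23 and 2.34, and MIR4718 at 2.65, 1.15 and 1.71 scaled TPM. In all, 7 members were at 0 in every HA-TAZ library and 0 members in every control library. No share over all genes stands beside these counts, so they are no result about the members as a set. By the mean of each group, 42 members lay under 1 TPM in HA-TAZ, among them the called MIR3613, MIR1302-8, MIR4779, MIR4682 and MIR4718. Such genes met the threshold only through the control libraries and had to differ, so their calls support nothing, and at about 1 TPM per estimated count their control values are a few reads.

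The 3 MIR941 loci, whose mature sequence is the same, were called in opposite directions. MIR941-1 (ENSG00000215946) stood at 24.3, 28.1 and 30.4 scaled TPM in HA-TAZ against 40.7, 37.0 and 42.4 in control and was lower (-0.52, SE 0.10, limma adjusted p = 0.0394). MIR941-2 and MIR941-3, with identical values and thus 1 measurement, stood at 4.04, 5.78 and 4.80 against 2.48, 1.61 and 2.65 and were higher (0.86, SE 0.18, limma adjusted p = 0.0473). Their host, with both in an intron, was DNAJC5, a chaperone gene of secretory vesicles, which stood at 0.28 (limma adjusted p = 0.0688). No tested host was matched to MIR941-1, which does not place it outside that gene. How reads were divided among the copies is not given, so the opposite calls cannot be read as differences between the loci. None of the 3 IDs kept its call in any fit without a library.

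Among the higher calls, MIR4292 (ENSG00000265806), in an intron of RABL6, had the highest level. It stood at 95.9, 98.1 and 91.4 scaled TPM in HA-TAZ and at 71.0, 81.0 and 66.3 in control (0.39, SE 0.08, limma adjusted p = 0.0479). As deposited the values were 83.0, 94.9 and 81.4 against 85.9, 88.3 and 70.2 TPM, which overlap, so the call rests on the scaling. MIR365A (ENSG00000199130), whose mature product is printed above, stood at 6.33, 7.53 and 5.43 against 0, 0.902 and 1.30 scaled TPM (2.17, SE 0.33, limma adjusted p = 0.0276), on about 2.61 estimated counts. MIR4737 stood at 4.13, 4.32 and 4.15 against 2.31, 1.80 and 1.21 (0.92, limma adjusted p = 0.0366), and MIR4470 at 4.39, 2.38 and 2.51 against 0, 0.701 and 0 (1.74, limma adjusted p = 0.0339). MIR365A and MIR4470 are the 2 called among 23 members whose control mean lay under 1 TPM. They met the threshold only through the HA-TAZ libraries and had to differ, so their calls support nothing either. MIR4474, in an intron of MLLT3, stood at 4.70, 2.69 and 6.46 against 1.08, 1.53 and 1.16 (1.26, limma adjusted p = 0.0492). Apart from MIR5194, every called member lost the call in at least 4 of the 6 fits without a library.

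**Figure D4:**
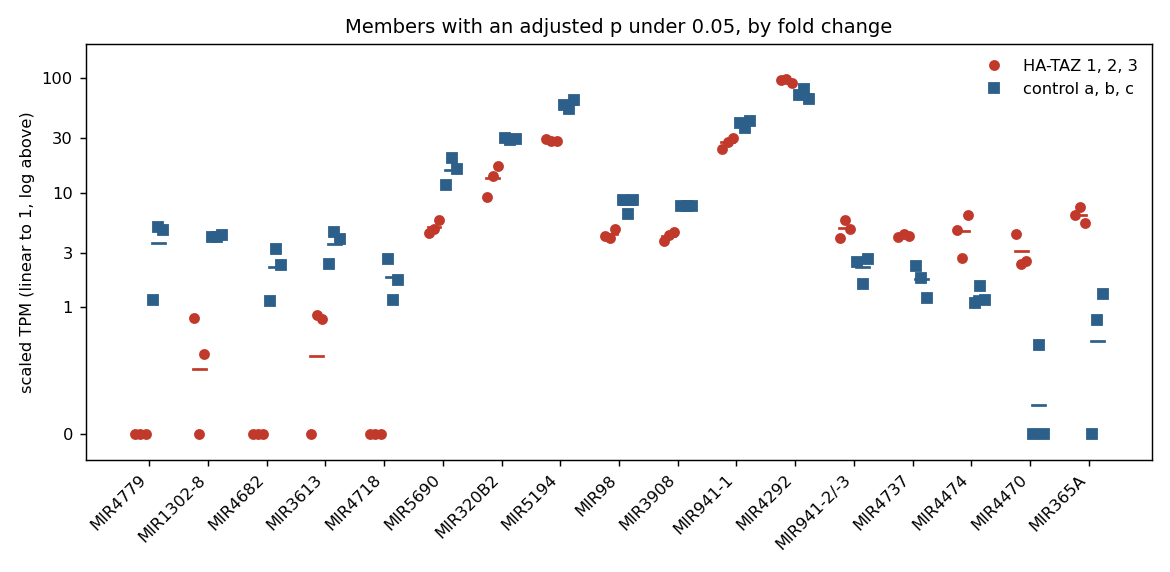
Scaled TPM (vertical, linear from 0 to 1 and logarithmic above) of the 17 distinct sets of values among called members, ordered by log2 fold change, in each HA-TAZ library (circles) and control library (squares), with bars at the group means. MIR5194, MIR941-1, MIR320B2 and MIR4292 stand above 9 scaled TPM in every library, and most others stand at a few TPM or at 0.

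The other members of high level did not pass the test. MIR421, in an intron of FTX, a long RNA near the X inactivation centre, stood at 57.3, 92.1 and 84.2 scaled TPM against 139, 154 and 71.7 (-0.59, limma adjusted p = 0.280), with control c among the HA-TAZ values. MIR4516 stood at 77.8, 70.6 and 51.6 against 95.1, 72.4 and 94.0 (-0.39), MIR1255B2 at 69.5, 77.1 and 58.2 against 84.7, 99.3 and 65.4 (-0.27), and MIR621 at 91.2, 46.7 and 99.99 against 37.5, 54.8 and 91.9 (0.38). All of these overlap. MIR3916, a long pseudogene transcript under this symbol, stood at 54.4, 58.2 and 57.4 against 53.7, 51.1 and 50.3 (0.13, limma adjusted p = 0.139), and its sign turned to -0.17 with TPM as deposited.

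Large fold changes were mostly found at low level, and among the 5 largest rises and 5 largest falls 3 passed the test. MIR191, in DALRD3, stood at 3.82, 4.78 and 10.3 scaled TPM against 2.42, 0 and 0 (2.18, SE 0.58, limma adjusted p = 0.0751). MIR3178, MIR626 and MIR4479 had log2 fold changes of 1.98, 1.92 and 1.91, and limma adjusted p of 0.0967, 0.264 and 0.0807. On the lower side, MIRLET7G, in WDR82, stood at 0, 0 and 1.85 against 14.1, 4.50 and 1.38 (-2.04, SE 0.77, limma adjusted p = 0.141), where control a made most of the difference. MIR3679 and MIR567 had log2 fold changes of -2.01 and -2.003, with limma adjusted p of 0.145 and 0.238. As deposited, MIR191 had a control mean under 1 TPM, and MIRLET7G an HA-TAZ mean of 0.550 TPM. Each met the threshold only through its higher group and had to differ, so these 2 fold changes support nothing. The same holds for any other gene named here with a group mean under 1 TPM.

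Hairpins were then grouped by the seed of their mature products. Mature sequences were found for 332 genes of short members (466 sequences), and 31 seeds were shared by 2 or more of them. The let-7 seed GAGGUAG was shared by the most, 7 genes: MIRLET7A1, MIRLET7C, MIRLET7D, MIRLET7F1, MIRLET7G, MIRLET7I and MIR98. With 1 of the 2 IDs of MIR98 counted, their scaled TPM summed to 23.1, 45.2 and 44.2 in HA-TAZ and to 51.1, 30.1 and 52.6 in control. These overlap, and MIR98 alone was called. By single gene ID, without summing the IDs of MIR98, MIRLET7D had the highest level of them, at 7.60, 7.53 and 19.0 against 15.4, 13.5 and 10.4. The miR-181 seed ACAUUCA was shared by 3 members, 1 higher and 2 lower by fold change. MIR181B1 stood at 10.6, 14.7 and 17.1 against 6.61, 3.499 and 7.002 scaled TPM (1.20, SE 0.27, limma adjusted p = 0.0569), while MIR181A2 stood at 14.2, 24.9 and 15.4 against 29.8, 31.5 and 25.2 (-0.68, SE 0.22, limma adjusted p = 0.104). MIR181B2 stood at 6.51, 0.955 and 0.914 against 8.16, 0.909 and 20.2 (-1.24, limma adjusted p = 0.441). None of the 3 was called, and the groups overlap for MIR181B2 alone.

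The intron of MCM7, a subunit of the replicative helicase, holds the cluster of MIR106B, MIR93 and MIR25, relatives of the miR-17-92 cluster. MIR25 stood at 44.3, 63.6 and 68.4 scaled TPM against 30.02, 40.1 and 50.7 (0.54, limma adjusted p = 0.188). MIR106B stood at 12.8, 27.4 and 29.7 against 8.23, 10.1 and 13.99 (0.99, limma adjusted p = 0.125), and MIR93 at 7.36, 8.35 and 22.8 against 5.69, 12.1 and 5.85 (0.54, limma adjusted p = 0.480). The groups overlap for all 3, with HA-TAZ 1 the lowest HA-TAZ library in each, and MCM7 itself stood at 0.22 (limma adjusted p = 0.0897).

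A list of 52 microRNA genes studied in myeloma and B cells was covered only in part, by missing gene IDs as well as by low levels. Of these symbols, 41 had a gene ID, 22 were members (17 short, 5 long genes), 10 were listed at 0 in every library and 9 lay above 0 under the threshold. Those at 0 include MIR21, MIR34A, MIR221, MIR150 and MIR223. MIR155, MIR15A and the genes of the miR-17-92 cluster had no gene ID under these symbols and were not analysed here, which says nothing of their level. None of the 22 members was called, beside 7.29% of all genes, and their median log2 fold change was 0.29, beside -0.03 for all genes.

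Most short members lay inside other genes. Of the 354 short members placed by GENCODE 29, 246 had a host on the same strand (245 in an intron, 1 in an exon), 51 lay only antisense to a gene and 47 in no gene on either strand. The other 10 lay in a gene that was not taken as a host, which for 7 was itself a microRNA-named ID and for 3 had no matched ID. For 233 of them the host was tested too (208 distinct hosts). The level of a member was a median of 0.326 of its host's TPM, and 52 short members stood above their host. The fold changes had the same sign in 129 pairs and opposite signs in 104, and over these pairs, which share libraries and sometimes hosts, Pearson's r was 0.23 and Spearman's rho 0.22. Among the 25 pairs with 20 or more estimated counts behind the member, the sign was shared in 18. The median was -0.15 for the members and 0.00 for their hosts.

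No pair had both partners called. Of the 208 distinct tested hosts, 6 were called higher and 11 lower, beside 4.67% and 2.63% of all genes (7.29% together). The count is no result about hosts as a set, and the hosts named next are examples. SREBF1, the sterol regulator gene that holds MIR33B, fell by 0.63 on the log2 scale (limma adjusted p = 0.00492), while MIR33B stood at 0, 3.04 and 0.952 scaled TPM against 1.21, 6.73 and 1.58. LINC00152, in whose intron MIR4435-1 lies, rose (0.57, limma adjusted p = 0.00609), with MIR4435-1 at -0.21. The copy MIR4435-2 has the same mature sequence and the same fold change, so the value of MIR4435-1 cannot be tied to this host. HECW1, host of MIR3943, fell by 1.14, with MIR3943 at -1.45 and not called. KRIT1 fell by 0.28, whereas MIR1285-1 in it was at 5.60, 13.2 and 13.7 against 2.87, 3.79 and 5.09 scaled TPM (1.20, limma adjusted p = 0.0887). Members were also set against their hosts within each library, for the 29 pairs in which either was called. An exact permutation test of 3 against 3 libraries can reach p = 0.1 at best, and all 11 called members with a host reached it (MIR5194, MIR320B2, MIR5690, MIR98, MIR3613, MIR4779, MIR4292, MIR941-2, MIR941-3, MIR365A and MIR4474), as did 2 of the 18 pairs in which the host alone was called (MIR570 in LINC00969 and MIR1285-1 in KRIT1). The 2 of 18 pairs are near the share that this exact permutation test gives with no difference, so they are no result about members and hosts. The called members were picked for their own difference, so their direction against the host is not independent of it.

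**Figure D5:**
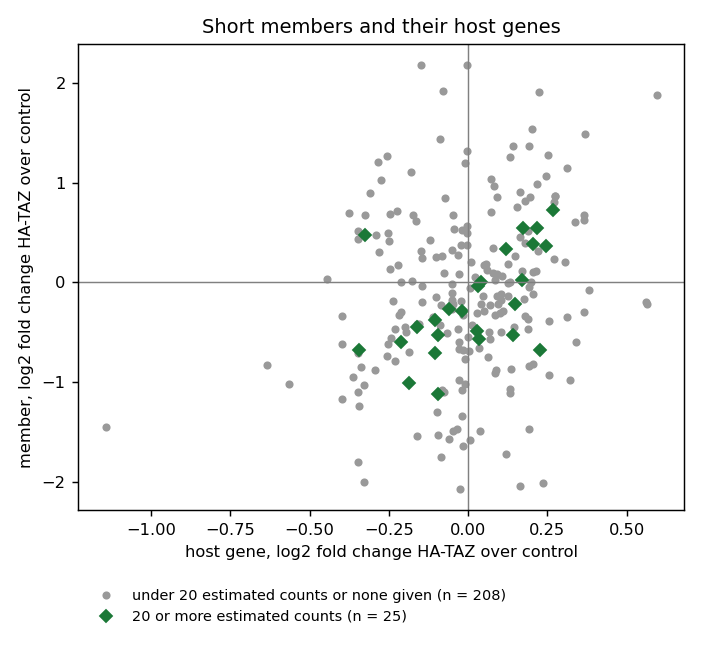
Log2 fold change of HA-TAZ over control for 233 short members (vertical) against that of their host genes (horizontal); green diamonds are the 25 members with 20 or more estimated counts, grey circles the other 208. Members spread over about 4 log2 units, hosts mostly within 1, and 18 of the 25 diamonds lie in the quadrants of equal sign.

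Of genes that make and use microRNAs, 26 of the list were found and 24 tested. Of these, 2 were higher and 2 lower (16.7%, beside 7.29% of all genes and 9.68% of protein-coding genes), and the median was -0.05. Calls depended on level, with 14.5% of all genes called from 20 to 1000 TPM. The count is thus no result about these genes as a set. ADAR, which edits double-stranded RNA, rose from 117, 119 and 118 scaled TPM in control to 151, 147 and 148 in HA-TAZ (0.33, SE 0.04, limma adjusted p = 0.0128), and RAN, the export GTPase, rose too (0.27, limma adjusted p = 0.0420). AGO4 fell from 10.4, 9.72 and 9.29 to 6.34, 6.75 and 7.12 (-0.48, limma adjusted p = 0.0295). ZCCHC11, also called TUT4, which adds uridines to let-7 precursors, fell from 21.3, 20.6 and 20.01 to 15.4, 15.5 and 14.6 (-0.42, limma adjusted p = 0.0173). DROSHA, DICER1, XPO5 and AGO2 were not called, at -0.19, -0.10, -0.03 and 0.13.

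Fold change ran with base composition, in members and in all genes. Of short members, 373 (96.1%) had a GC content from GENCODE 29, with a median of 48.5%. The median log2 fold change was -0.31 for the 91 short members under 40% GC, -0.04 for 112 from 40% to 50%, -0.18 for 100 from 50% to 60%, and 0.38 for 70 at 60% or more. Of the called members, 6 lower and 0 higher were under 40% GC, and 1 lower and 4 higher at 60% or more. All tested genes tilted the same way, with 127 lower and 73 higher of 3130 under 40% GC, and 9 lower and 162 higher of 1865 at 60% or more. Over all 18928 tested genes with a value the medians in these ranges were -0.10, -0.07, 0.03 and 0.20. Spearman's rho was 0.18 over the members and 0.29 over all genes, a description across genes of the same 6 libraries. The part of base composition in the calls was not tested. Among types of genes, the median was 0.06 for protein-coding genes, -0.42 for small nuclear RNAs, -0.08 for small nucleolar RNAs and -0.21 for genes in sense introns, so the members' -0.10 lay within the range of other non-coding types.

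Levels on both sides of the threshold of 1 TPM were close. Just inside stood MIR3180-4, MIR450A1 and MIR1180, with means of 1.01, 1.01 and 1.02 TPM, and just outside MIR33A, MIR548AC and MIR148A, with 0.988, 0.989 and 0.991. MIR33A was at 1.87, 2.40 and 1.66 TPM in HA-TAZ and listed at 0 in every control library, a pattern that no member shows.

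As checks on the libraries, WWTR1 stood at 339, 316 and 329 scaled TPM in HA-TAZ and at 2.22, 2.03 and 1.60 in control (6.80, SE 0.09, limma adjusted p = 1.14e-05), in the direction of the labels. Of the plasma cell markers SDC1, CD38, IRF4, PRDM1, XBP1, TNFRSF17, MZB1, IGJ and SLAMF7, none was below 3.31 scaled TPM in any library, CD38 was lower (-0.61) and SLAMF7 higher (0.95) in HA-TAZ, and markers of T cells, monocytes, erythroid, epithelial and fibroblast cells reached at most 2.01 scaled TPM. The deposited TPM of each library summed to 1000000, so the depth of a single library is unknown, and the factors ran from 0.866 to 0.967 in HA-TAZ and from 1.06 to 1.21 in control.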

How the data were processed

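Total RNA of 3 HA-TAZ and 3 wild type KMS27 libraries was analysed from the authors' deposited table of TPM per transcript and their deposited table of a test per transcript, whose p-values, q-values and natural log effects and means were copied (the deposited effect is a natural log ratio with control below). The submitters' processing notes name GRCh37, kallisto 0.46.0 and sleuth 0.30.0, without their roles. TPM was summed per gene ID and divided by median-of-ratios factors over 21512 tested genes above 0 in every library. Genes whose TPM averaged 1 or more were tested with limma 3.58.1 (R 4.3.3, intensity trend, pseudocount 1, two-sided, threshold 0.05). The fold change of log2(scaled TPM + 1) understates changes of low genes. Types, hosts and GC came from GENCODE 29, and sequences from RefSeq, both on another build than the notes name, so no coordinates are given. Strand use in the quantification is not stated, so overlapping and antisense genes are uncertain. The test was also run on simulated data with normal noise on the log scale. Those data model neither low counts nor shared copies, so that run does not bear on members with few reads.

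The members and lists were chosen with earlier results of these data known. Named are every called member, the 10 of highest level, the 5 largest rises and falls, MIR590, WWTR1, hosts, genes beside the threshold and list members; examples of seed families, called hosts and long genes were picked after their values were seen.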

Additional observations from a re-analysis of the deposited data

How the results depend on the processing

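No paired analysis was possible because the control columns cannot be tied to numbered samples. Against 19 members called (7.29% of all genes), 16 were called with a pseudocount of 0.1 (7.13%), 17 of 173 with a mean TPM of at least 5 (17.8%, with 8 members shared with the 19), 15 with factors over protein-coding genes (6.71%), 20 with TPM summed per symbol (8.53%), and, chosen after seeing the data, 21 with factors over every gene above 0 (8.5%). The count was 5 with no filter on level (more genes tested, 1.46% of all genes), 11 without the trend (3.35%) and 29 with TPM as deposited (14.7%), so it moved with the calls over all genes. Leaving out each library gave 2 to 11 calls, beside 0.508% to 1.91% of all genes, with fewer samples in each fit. The authors' deposited q-value under 0.01 kept 3 transcripts in place of 6. The summed ratio of 1.61 became 1.97 after scaling and 0.751 without the 5 members of highest mean. The median log2 fold change of -0.10 became -0.33 with TPM as deposited and lay from -0.13 to -0.04 in the fits without a library. MIR3916 reversed to -0.17 with TPM as deposited (limma adjusted p = 0.254). Over the 38 named genes, 131 of 515 values lost the call with the direction kept, 97 of them in the fits without a library. The causes of these shifts were not tested beyond what each setting's construction shows. Precision is limited by few reads, with a median of 8.96 estimated counts over the 186 short members that have statistics. For 202 members no estimate is given.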
